A study of Mus musculus with 12 samples.

Results

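The genes described here are 10 that mouse neutrophils express at high levels: S100a8, S100a9, Retnlg, Stfa2l1, Lcn2, Csf3r, Cxcr2, Fpr1, Fpr2 and Trem1. They were chosen by symbol from the 53801 genes of the count table, and 10 of 10 were found. Where a symbol is used by several rows, the row with the highest total count was to be taken, but each of the 10 symbols had 1 row, so this measured value decided nothing. All 10 passed the filter on low counts, together with 14964 genes in all, but Stfa2l1 did not pass it in the WT libraries alone.

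RNA was measured by bulk sequencing of macrophages isolated from the hearts of C57BL/6N mice after myocardial infarction, made in every group by ligating the left anterior descending coronary artery. Cells were separated by CCR2, the receptor for the monocyte chemoattractant CCL2. The 4 groups of 3 libraries were Bhlhe41dTomato-Cre+/- CCR2low, Bhlhe41dTomato-Cre+/- CCR2hi, wild-type (WT) CCR2low and WT CCR2hi. The labels give no age, time after infarction, number of pooled animals or deleted target of the Cre. Bhlhe41dTomato-Cre+/- is called Bhlhe41Cre here. Its name gives 1 allele of Bhlhe41 carrying dTomato and Cre, and the columns of the deposited tables call these libraries KD. A library is named by its group and number, as in WT CCR2hi 1.

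Neutrophils are short-lived granulocytes that enter the infarcted heart soon after injury. S100A8 and S100A9, small calcium-binding proteins that pair to form calprotectin, make up much of the neutrophil's cytosolic protein. Neutrophils leave the marrow under G-CSF, follow CXC chemokines and formyl peptides through surface receptors, and carry antimicrobial proteins in granules made at successive stages of their development. Monocytes and some macrophages also express several of these genes, among them Csf3r, Fpr1, Fpr2, Trem1 and, in inflammatory monocytes, S100a8 and S100a9.

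Total counts were between 17.7 and 20.83 M per library, where 1 M is 1e+06 counts. Bhlhe41 itself had 226 to 477 counts in Bhlhe41Cre CCR2low beside 132 to 198 in Bhlhe41Cre CCR2hi, against 642 to 774 in WT CCR2low beside 531 to 920 in WT CCR2hi. Ccr2, the gene of the receptor used for the gates, was counted 1115 to 1645 times in Bhlhe41Cre CCR2low and 1477 to 1735 times in Bhlhe41Cre CCR2hi, against 346 to 765 times in WT CCR2low and 853 to 1702 times in WT CCR2hi. Its message was lower in CCR2low of WT (-1.06 ± 0.301 on the log2 scale, adjusted p = 0.00825, edgeR as described with the first comparison), while in Bhlhe41Cre the gates overlapped (-0.01 ± 0.296, adjusted p = 0.983). The labels give male mice throughout, but Xist, made from the inactive X chromosome, had 1403 to 3699 counts in the Bhlhe41Cre libraries and 0 to 3 in the WT libraries. Counts of 4 Y-linked genes were 105 and 182 in the Bhlhe41Cre libraries numbered 3, between 709 and 1446 in the other Bhlhe41Cre libraries, and between 668 and 1741 in WT. Sex and genotype therefore cannot be told apart, and results are also given with both Bhlhe41Cre libraries numbered 3 left out. The libraries kept still had 3699 and 2983 Xist counts in Bhlhe41Cre CCR2low and 1798 and 1589 in Bhlhe41Cre CCR2hi, so this does not separate sex from genotype. Markers of macrophages were present in all libraries but low in the CCR2hi gate: a list of 15 took 2.09 ± 0.166% of counts in Bhlhe41Cre CCR2low, 0.504 ± 0.0805% in Bhlhe41Cre CCR2hi, 2.38 ± 0.0293% in WT CCR2low and 0.269 ± 0.0998% in WT CCR2hi (SD, n = 3). A list of 12 fibroblast genes took 0.344, 4.35, 0.718 and 7.73% of counts in the same groups and order, and was the larger of both lists in the CCR2hi gate. In such bulk samples, fewer cells of a type and less RNA per cell cannot be told apart.

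The promoters of the genes for secreted or stored proteins are shown because 4 of these 5 genes had the largest differences between genotypes in CCR2hi. Each is the RefSeq window of 250 bases before to 50 after the start of transcription on GRCm38.p6, printed 5′ to 3′ on the gene's own strand, and 10 of 10 genes matched a window. Capitals mark TTNNGNAA on either strand, a loose form of the half-sites bound by C/EBP factors, which drive granulocyte genes. The windows are chr3:90668821-90669120 (plus strand) for S100a8, chr3:90695672-90695971 (minus) for S100a9, chr16:48872358-48872657 (plus) for Retnlg, chr16:36156561-36156860 (plus) for Stfa2l1 and chr2:32387690-32387989 (minus) for Lcn2.
S100a8: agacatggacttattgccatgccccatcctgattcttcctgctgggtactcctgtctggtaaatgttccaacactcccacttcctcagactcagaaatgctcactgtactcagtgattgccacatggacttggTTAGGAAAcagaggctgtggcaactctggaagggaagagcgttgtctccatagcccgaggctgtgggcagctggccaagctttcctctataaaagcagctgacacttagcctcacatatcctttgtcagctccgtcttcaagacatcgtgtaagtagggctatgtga
S100a9: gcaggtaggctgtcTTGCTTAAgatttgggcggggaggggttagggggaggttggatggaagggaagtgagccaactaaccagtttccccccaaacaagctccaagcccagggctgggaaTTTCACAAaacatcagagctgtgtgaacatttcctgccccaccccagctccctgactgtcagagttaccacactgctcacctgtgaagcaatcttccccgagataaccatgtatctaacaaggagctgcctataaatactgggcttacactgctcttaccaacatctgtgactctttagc
Retnlg: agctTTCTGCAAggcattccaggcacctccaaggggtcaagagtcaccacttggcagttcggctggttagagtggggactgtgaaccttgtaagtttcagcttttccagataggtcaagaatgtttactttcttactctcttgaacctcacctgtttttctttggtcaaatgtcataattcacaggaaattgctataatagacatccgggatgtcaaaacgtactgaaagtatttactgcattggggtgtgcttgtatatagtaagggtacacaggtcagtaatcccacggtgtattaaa
Stfa2l1: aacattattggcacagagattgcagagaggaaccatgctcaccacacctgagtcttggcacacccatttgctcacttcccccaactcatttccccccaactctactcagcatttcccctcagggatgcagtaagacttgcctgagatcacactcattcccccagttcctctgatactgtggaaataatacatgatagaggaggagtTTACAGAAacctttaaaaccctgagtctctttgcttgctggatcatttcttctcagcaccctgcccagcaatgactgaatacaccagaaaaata
Lcn2: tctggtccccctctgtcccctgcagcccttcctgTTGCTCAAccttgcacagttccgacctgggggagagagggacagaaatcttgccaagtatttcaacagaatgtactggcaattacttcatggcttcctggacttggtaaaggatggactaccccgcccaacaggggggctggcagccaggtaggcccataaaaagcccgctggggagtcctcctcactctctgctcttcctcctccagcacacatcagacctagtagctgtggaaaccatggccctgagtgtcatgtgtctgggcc
TTNNGNAA was found in 8 of the 10 windows and in 40.7% of all 32851 windows of this length. GAGGAA, the core bound by PU.1, was found on either strand in 7 of 10 and in 28.3% of all windows. TATAAA was found on either strand in 4 of 10, those of S100a8, S100a9, Fpr1 and Fpr2, and in 13.6% of all windows. A loose NF-kB pattern, a run of 3 G and a pair of C with any 5 bases between them, on either strand, was found in 3 of 10 and in 50.8% of all windows. In these 10 windows no match of 1 motif overlapped a match of another. A match is only these letters, and no factor was measured on the DNA.

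**Figure D1:**
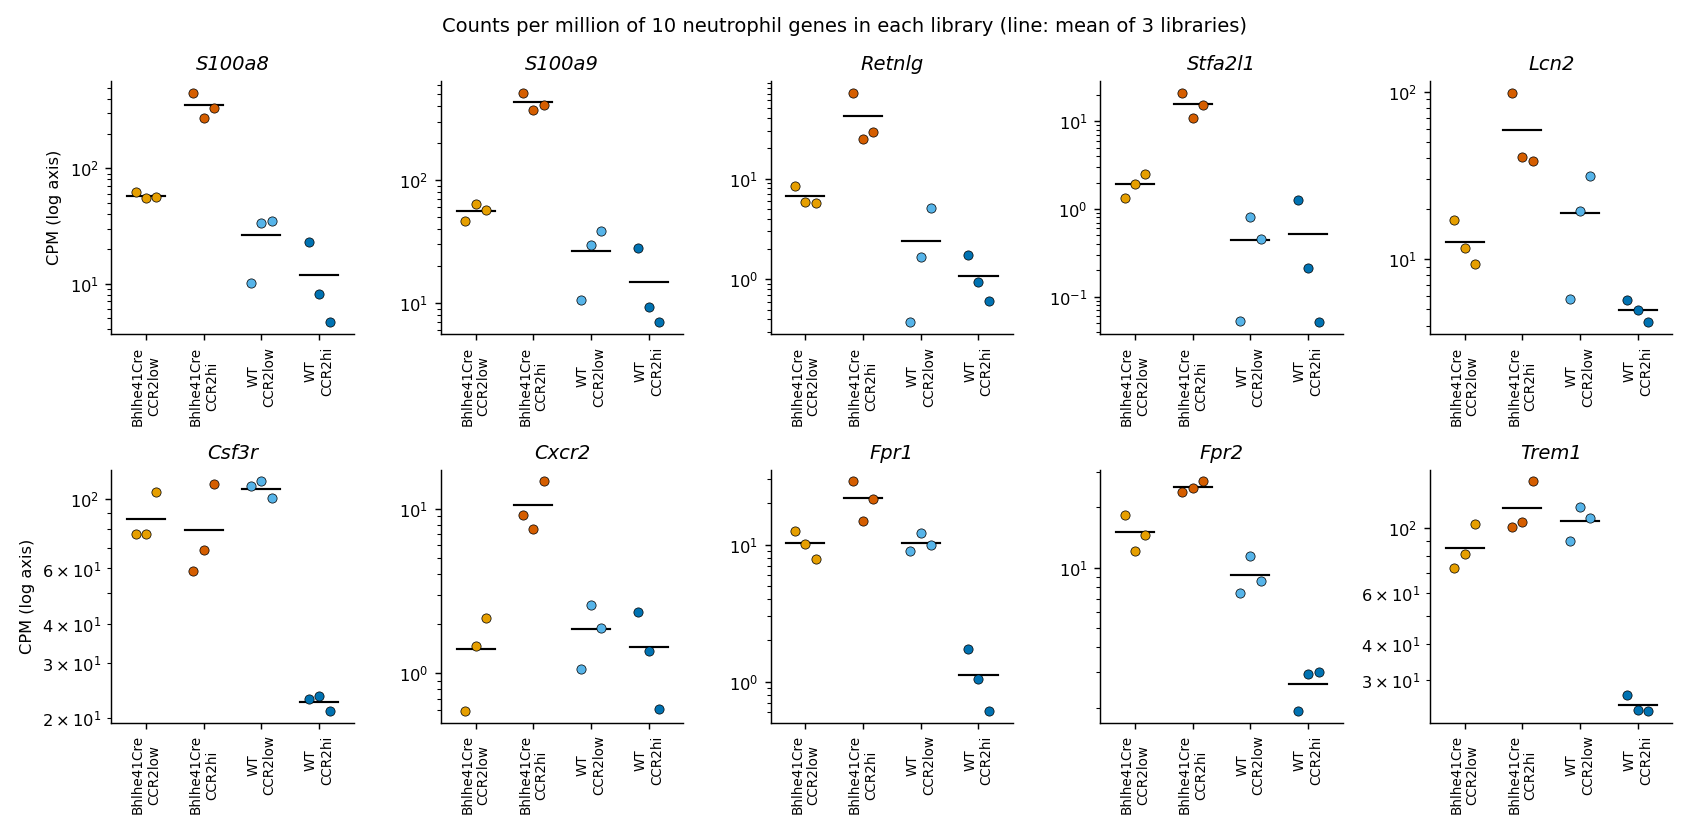
CPM (counts per 1e+06 counts, log axis) of the 10 neutrophil genes in each of the 12 libraries, 1 panel per gene with its own scale. Points are libraries and lines are means of 3. S100a8, S100a9, Retnlg, Stfa2l1, Lcn2, Cxcr2, Fpr1 and Fpr2 stood highest in all 3 Bhlhe41Cre CCR2hi libraries, while Csf3r and Trem1 were lowest in WT CCR2hi and overlapped among the other groups.

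Levels are given as CPM on library sizes scaled by TMM, with the SD of 3 libraries. S100a8 (chr3:90668978-90670035, plus strand, GRCm38) and S100a9 (chr3:90692632-90695721, minus strand) are protein-coding neighbours 22597 bases apart. S100a8 was at 61.8, 54.7 and 56.2 CPM in Bhlhe41Cre CCR2low and at 454, 273 and 336 CPM in Bhlhe41Cre CCR2hi, against 10.1, 33.3 and 34.9 CPM in WT CCR2low and at 22.8, 8.04 and 4.59 CPM in WT CCR2hi. The Bhlhe41Cre CCR2hi libraries stood above all others, the Bhlhe41Cre CCR2low libraries came next, and the WT gates overlapped. S100a9 was at 46.6, 64.5 and 57.1 CPM in Bhlhe41Cre CCR2low and at 518, 371 and 413 CPM in Bhlhe41Cre CCR2hi, against 10.5, 29.8 and 38.5 CPM in WT CCR2low and at 28.2, 9.24 and 6.93 CPM in WT CCR2hi. Its groups took the same order, and WT CCR2hi 1 was the high library of its group for both genes. The partners kept a near-constant balance: S100a8 over S100a9 in TPM, which is scaled by length, was between 0.717 and 1.45 in the 12 libraries.

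Retnlg (chr16:48872621-48874496, plus strand) encodes resistin-like gamma, a secreted protein of granulocytes. Its levels were 8.51, 5.89 and 5.76 CPM in Bhlhe41Cre CCR2low beside 71.8, 24.6 and 28.9 CPM in Bhlhe41Cre CCR2hi, against 0.373, 1.66 and 5.15 CPM in WT CCR2low and at 1.73, 0.945 and 0.611 CPM in WT CCR2hi. Bhlhe41Cre CCR2hi 1 was far above the other libraries of its group, and the WT gates overlapped. Stfa2l1 (chr16:36156811-36161953, plus strand) belongs to the stefin A family of cysteine protease inhibitors, whose near-identical copies can share reads, so its split from them is uncertain. Its counts were 25, 35 and 42 in Bhlhe41Cre CCR2low beside 443, 226 and 298 in Bhlhe41Cre CCR2hi, against 1, 16 and 9 in WT CCR2low beside 26, 4 and 1 in WT CCR2hi. The WT gates overlapped, and neither reached the Bhlhe41Cre CCR2hi range. Lcn2 (chr2:32384633-32388252, minus strand) encodes lipocalin 2, which binds bacterial siderophores. It was at 17.1, 11.7 and 9.35 CPM in Bhlhe41Cre CCR2low and at 99.0, 40.7 and 38.7 CPM in Bhlhe41Cre CCR2hi, against 5.75, 19.4 and 31.4 CPM in WT CCR2low and at 5.67, 4.94 and 4.18 CPM in WT CCR2hi. Bhlhe41Cre CCR2hi was again highest, but the CCR2low gates of the genotypes overlapped.

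Among the receptors, Cxcr2 (chr1:74153989-74161246, plus strand), the receptor for the neutrophil-attracting CXC chemokines, had 11, 27 and 37 counts in Bhlhe41Cre CCR2low beside 191, 158 and 286 in Bhlhe41Cre CCR2hi, against 20, 52 and 37 in WT CCR2low beside 48, 26 and 12 in WT CCR2hi. The other 3 groups overlapped with each other and all lay below Bhlhe41Cre CCR2hi. Csf3r (chr4:126024550-126044440, plus strand), the receptor for G-CSF, took another course. It was at 77.5, 77.5 and 105 CPM in Bhlhe41Cre CCR2low and at 58.7, 68.5 and 112 CPM in Bhlhe41Cre CCR2hi, against 110, 114 and 101 CPM in WT CCR2low and at 22.9, 23.4 and 21.0 CPM in WT CCR2hi. Neighbouring groups overlapped down to WT CCR2hi, which alone stood apart. Trem1 (chr17:48232768-48246924, plus strand), an activating receptor that amplifies inflammatory signals, was at 72.7, 81.3 and 103 CPM in Bhlhe41Cre CCR2low and at 101, 105 and 145 CPM in Bhlhe41Cre CCR2hi, against 90.0, 118 and 108 CPM in WT CCR2low and at 26.7, 23.7 and 23.5 CPM in WT CCR2hi. As with Csf3r, WT CCR2hi was the low group and the other 3 overlapped.

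The formyl peptide receptors Fpr1 (chr17:17876471-17883940, minus strand) and Fpr2 (chr17:17887824-17893952, plus strand) lie 3884 bases apart and detect bacterial and mitochondrial peptides. Fpr1 was at 12.6, 10.1 and 7.82 CPM in Bhlhe41Cre CCR2low and at 28.9, 14.8 and 21.4 CPM in Bhlhe41Cre CCR2hi, against 8.95, 12.1 and 9.84 CPM in WT CCR2low and at 1.73, 1.05 and 0.611 CPM in WT CCR2hi. The CCR2low gates of the genotypes overlapped, between a high Bhlhe41Cre CCR2hi group and a low WT CCR2hi group. Fpr2 was at 18.3, 12.1 and 14.5 CPM in Bhlhe41Cre CCR2low and at 23.8, 25.1 and 27.0 CPM in Bhlhe41Cre CCR2hi, against 7.51, 11.4 and 8.62 CPM in WT CCR2low and at 1.92, 2.94 and 3.01 CPM in WT CCR2hi. Of the 10 genes, Fpr2 was the one whose 4 groups did not overlap at any step of their order.

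Within the CCR2hi gate, all 10 genes were higher in Bhlhe41Cre than in WT, by edgeR's quasi-likelihood test fitted to all 12 libraries with p-values adjusted over all genes (Benjamini-Hochberg, called under 0.05). The background was 16.2% of the 14964 genes called higher, and the median log2 fold change was 3.92 over the 10 genes and -0.03 over all genes. Since the 10 genes were chosen with earlier results of these data known, this and the like contrasts with all genes below are descriptions and no independent support. Stfa2l1 did not pass the filter in the WT libraries alone but through Bhlhe41Cre. Its place among the 10, here and in the counts below, is therefore no independent support. The change was 5.24 ± 0.708 on the log2 scale for Retnlg (SE, adjusted p = 0.000184), 4.90 ± 0.586 for S100a8 (adjusted p = 9.36e-05), 4.90 ± 0.662 for Stfa2l1 (adjusted p = 0.000151) and 4.87 ± 0.558 for S100a9 (adjusted p = 6.66e-05). Mean CPM was 354 ± 92.2 for S100a8 in Bhlhe41Cre and 11.8 ± 9.69 in WT, a ratio of 30.0. Receptors spanned a wider range, from 4.25 ± 0.349 for Fpr1 (adjusted p = 3.49e-06) and 3.27 ± 0.229 for Fpr2 (adjusted p = 1e-06) to 2.85 ± 0.487 for Cxcr2 (adjusted p = 0.000797), 2.25 ± 0.178 for Trem1 (adjusted p = 2.68e-06) and 1.83 ± 0.211 for Csf3r (adjusted p = 5.01e-05). Lcn2 lay between, at 3.59 ± 0.548 (adjusted p = 0.000434). The 3 libraries of Bhlhe41Cre were above the 3 of WT for 10 of 10 genes, as for 22.9% of all genes. Single libraries moved values but no call: without WT CCR2hi 1, S100a8 was at 5.80, S100a9 at 5.73 and Stfa2l1 at 6.85, and without Bhlhe41Cre CCR2hi 1, Retnlg was at 4.57 and Lcn2 at 2.98. With both Bhlhe41Cre libraries numbered 3 left out, 10 of 10 were again called, with a median of 4.04.

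Within the CCR2low gate the genotypes differed less. Stfa2l1 (2.08 ± 0.725 on the log2 scale, SE, adjusted p = 0.0336) and Fpr2 (0.70 ± 0.206, adjusted p = 0.0145) were higher in Bhlhe41Cre, and 8 of 10 genes were not called, by edgeR and against a background of 16.4% called higher. The limit on Stfa2l1, which did not pass the filter in the WT libraries alone, holds in this gate too. S100a8 was at 57.6 ± 3.74 CPM in Bhlhe41Cre and 26.1 ± 13.9 CPM in WT (1.14 ± 0.508, adjusted p = 0.0889), S100a9 had a difference of 1.09 ± 0.485 (adjusted p = 0.0879) and Retnlg of 1.48 ± 0.637 (adjusted p = 0.0781). Fpr1 differed by -0.01 ± 0.288 (adjusted p = 0.978), Trem1 by -0.30 ± 0.169 (adjusted p = 0.17), Csf3r by -0.32 ± 0.202 (adjusted p = 0.215), Cxcr2 by -0.41 ± 0.519 (adjusted p = 0.552) and Lcn2 by -0.57 ± 0.499 (adjusted p = 0.382). All 3 libraries of Bhlhe41Cre were above the 3 of WT for S100a8, S100a9, Retnlg, Stfa2l1 and Fpr2, 5 of 10 genes against 19.1% of all genes. The median log2 fold change was 0.35 for the 10 genes and -0.18 for all genes.

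Both CCR2low calls were lost in some of the fits with 1 library left out. Fpr2 was not called without Bhlhe41Cre CCR2low 1 (0.54, adjusted p = 0.0821) or WT CCR2low 1 (0.58, adjusted p = 0.0681). Stfa2l1 was not called without Bhlhe41Cre CCR2low 2 (2.08, adjusted p = 0.0714) or 3 (2.01, adjusted p = 0.0708), or without WT CCR2low 1 (1.57, adjusted p = 0.108) or 3 (2.10, adjusted p = 0.0696), and was at 2.84 without WT CCR2low 2. Conversely, Retnlg was called without WT CCR2low 3 (2.70, adjusted p = 0.0053) or Bhlhe41Cre CCR2hi 1 (1.66, adjusted p = 0.0415). This last library is in neither group of the comparison. S100a8 and S100a9 were called without WT CCR2hi 1 (1.32 and 1.27, adjusted p = 0.0152 and 0.0136), and S100a8 without WT CCR2hi 3 (1.14, adjusted p = 0.0456). With both Bhlhe41Cre libraries numbered 3 left out, Fpr2 was called (0.72, adjusted p = 0.0302), Stfa2l1 was not (1.85, adjusted p = 0.112), and Csf3r (-0.49, adjusted p = 0.00651) and Trem1 (-0.46, adjusted p = 0.0184) were called lower.

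Between the gates of Bhlhe41Cre hearts, 9 of the 10 genes were lower in CCR2low than in CCR2hi, against a background of 29.1% of all genes called lower (edgeR, Benjamini-Hochberg). The differences were -3.05 ± 0.573 on the log2 scale for Stfa2l1 (adjusted p = 0.000498), -2.95 ± 0.507 for S100a9 (adjusted p = 0.000311), -2.90 ± 0.493 for Cxcr2 (adjusted p = 0.000227), -2.63 ± 0.592 for Retnlg (adjusted p = 0.00219), -2.62 ± 0.523 for S100a8 (adjusted p = 0.00102) and -2.22 ± 0.508 for Lcn2 (adjusted p = 0.00248). They were smaller for Fpr1 (-1.09 ± 0.286, adjusted p = 0.00566), Fpr2 (-0.76 ± 0.201, adjusted p = 0.00607) and Trem1 (-0.45 ± 0.169, adjusted p = 0.0375). Csf3r averaged 86.6 ± 15.8 CPM in CCR2low and 79.6 ± 28.2 CPM in CCR2hi (0.12 ± 0.202, adjusted p = 0.637). Excepting Csf3r and Trem1, the 3 CCR2low libraries lay below the 3 CCR2hi libraries, for 8 of 10 genes against 32.6% of all genes. The call of Trem1 was lost without Bhlhe41Cre CCR2low 1 (adjusted p = 0.155) or 2 (adjusted p = 0.104) or Bhlhe41Cre CCR2hi 3 (adjusted p = 0.19), and without the last Csf3r was called higher (0.44, adjusted p = 0.0333). Without Bhlhe41Cre CCR2hi 1, Retnlg was at -1.98 and Lcn2 at -1.63, both still called. Over the same contrast 15 of 15 macrophage genes were higher in CCR2low, 11 of 12 fibroblast genes were lower, and of 10 monocyte genes 1 was higher and 5 were lower. Their part in these differences was not tested.

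Between the gates of WT hearts, 5 of the 10 genes were higher in CCR2low, 0 were lower and the other 5 were not called. Csf3r (2.27 ± 0.213 on the log2 scale, adjusted p = 1.02e-06), Trem1 (2.10 ± 0.178, adjusted p = 4.4e-07), Fpr1 (3.18 ± 0.346, adjusted p = 3.72e-06), Fpr2 (1.81 ± 0.226, adjusted p = 1.34e-05) and Lcn2 (1.94 ± 0.529, adjusted p = 0.00683) were the genes called, against a background of 29.8% of all genes called higher (edgeR). Not called were S100a8 at 1.14 ± 0.521 (adjusted p = 0.076), Retnlg at 1.13 ± 0.742 (adjusted p = 0.206), S100a9 at 0.83 ± 0.493 (adjusted p = 0.164), Cxcr2 at 0.36 ± 0.512 (adjusted p = 0.567) and Stfa2l1 at -0.23 ± 0.844 (adjusted p = 0.828). Those 5 called genes were also those whose CCR2low libraries all stood above the CCR2hi libraries, as 33.7% of all genes did. Without WT CCR2low 1, S100a8 (1.53, adjusted p = 0.013), S100a9 (1.21, adjusted p = 0.0322) and Retnlg (1.63, adjusted p = 0.0392) were called too, and without WT CCR2hi 1, S100a8 (1.85, adjusted p = 0.00575) and S100a9 (1.51, adjusted p = 0.0114) were. Without WT CCR2low 3, Retnlg was at -0.09, and Stfa2l1 was at 1.53 without WT CCR2hi 1 and at -0.98 without WT CCR2low 2, none of them called. Scaled to the summed macrophage list in place of TMM, which moved the median of all genes to -3.41 in WT and -2.28 in Bhlhe41Cre, the 10 genes had medians of -1.91 in WT and -4.74 in Bhlhe41Cre. On that scale 9 of 10 genes were called lower in WT CCR2low, all but Fpr1 (-0.32, adjusted p = 0.543). The median of all genes was lower still in WT, so this count is not read as a result about the 10 genes. Over the WT gates 15 of 15 macrophage genes were higher in CCR2low, 11 of 12 fibroblast genes were lower, and of 10 monocyte genes 4 were higher and 3 were lower. Their part in the result was not tested.

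The gate difference was also compared between genotypes directly, as CCR2low minus CCR2hi in Bhlhe41Cre minus the same in WT. It was lower in Bhlhe41Cre for 9 of the 10 genes (edgeR interaction term), against a background of 7.85% of all genes called lower, with a median of -3.50 for the 10 genes and -0.18 for all genes. Values were between -4.26 ± 0.45 for Fpr1 (adjusted p = 0.000307) and -2.15 ± 0.291 for Csf3r (adjusted p = 0.00108) on the log2 scale. Stfa2l1 was not called (-2.82 ± 1.04, adjusted p = 0.0912), except without WT CCR2hi 1 (-4.59, adjusted p = 0.0165), and was at -2.06 without WT CCR2low 2. The call of Retnlg (-3.76 ± 0.938, adjusted p = 0.0233) was lost without Bhlhe41Cre CCR2low 1 (adjusted p = 0.0519) or 2 (adjusted p = 0.0691), Bhlhe41Cre CCR2hi 1 (-2.92, adjusted p = 0.0594), WT CCR2low 3 (-2.54, adjusted p = 0.067) or both Bhlhe41Cre libraries numbered 3 (-3.87, adjusted p = 0.0555). Lcn2 was at -3.37 without Bhlhe41Cre CCR2hi 1, and S100a8 at -4.48 and S100a9 at -4.46 without WT CCR2hi 1, all called. Scaled to the macrophage list, 3 of 10 were called, Fpr1, Fpr2 and Lcn2. That scale put the median interaction at 0.96 over all genes and at -2.16 over the 10, so this count is not like for like with that on TMM. On log2(TPM + 1) with no filter 6 were called, S100a8 (adjusted p = 0.054), Lcn2 (adjusted p = 0.0598) and Retnlg (adjusted p = 0.16) losing their calls. These 5 comparisons share libraries, so their values are not independent of each other.

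**Figure D2:**
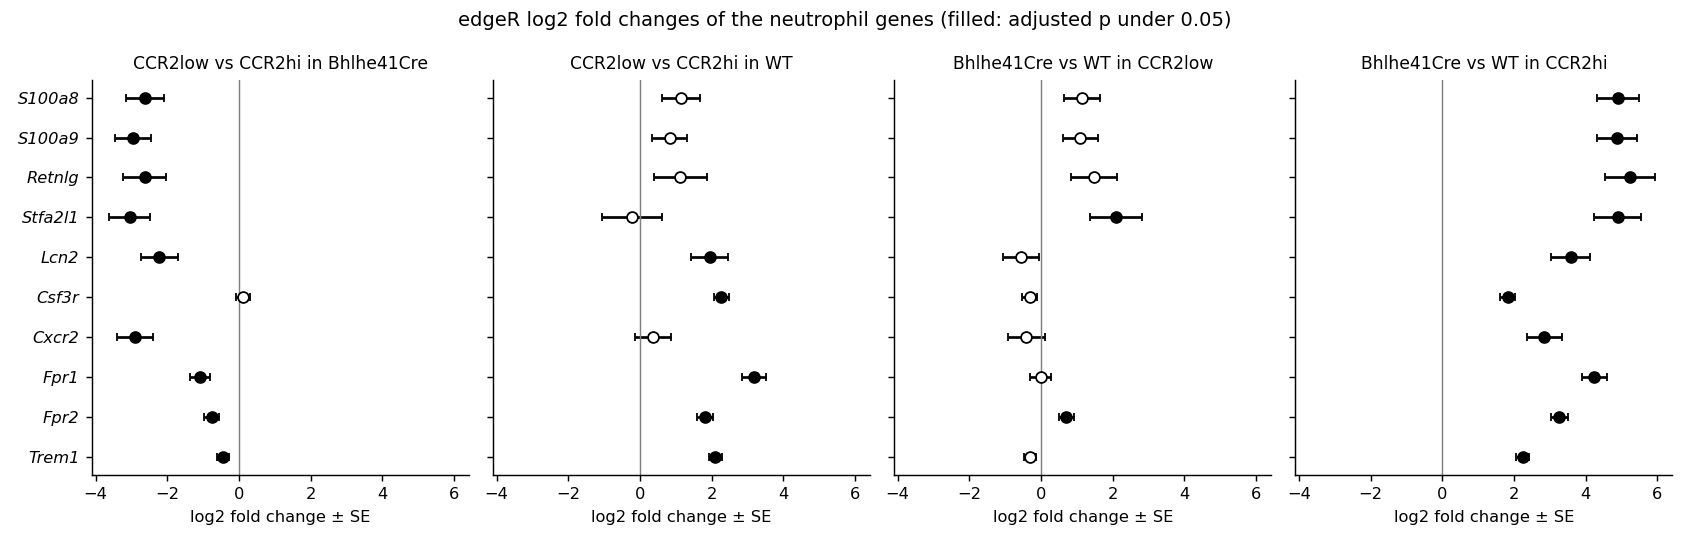
Log2 fold changes of the 10 genes in the 4 comparisons between groups, with bars of 1 SE and filled points where the edgeR adjusted p is under 0.05. All 10 points are filled and right of 0 for Bhlhe41Cre against WT in CCR2hi, 2 are filled in CCR2low, 9 are filled and left of 0 between the Bhlhe41Cre gates, and 5 are filled and right of 0 between the WT gates.

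The genes did not move in 1 proportion. S100a8 and S100a9 together held 34.2, 37.1 and 31.2% of the 10 genes' counts in Bhlhe41Cre CCR2low beside 70.1, 68.4 and 65.0% in Bhlhe41Cre CCR2hi, against 8.46, 18.4 and 21.6% in WT CCR2low beside 44.3, 22.8 and 17.7% in WT CCR2hi. The Bhlhe41Cre CCR2hi libraries had the largest shares and the WT CCR2low libraries shares of 21.6% or less. Relative to S100a8 in TPM, Csf3r was at 12.2 to 18.3% in Bhlhe41Cre CCR2low beside 1.45 to 3.52% in Bhlhe41Cre CCR2hi, against 30.7 to 126% in WT CCR2low beside 11.3 to 50.4% in WT CCR2hi. Trem1 was at 12.1 to 19.4% in Bhlhe41Cre CCR2low beside 2.35 to 4.50% in Bhlhe41Cre CCR2hi, against 35.4 to 104% in WT CCR2low beside 13.7 to 58.4% in WT CCR2hi. For both receptors the range in Bhlhe41Cre CCR2hi lay below that of every other group. Retnlg varied less, with 7.26 to 9.67% in Bhlhe41Cre CCR2low beside 6.07 to 11.1% in Bhlhe41Cre CCR2hi, against 2.66 to 10.6% in WT CCR2low beside 5.47 to 9.61% in WT CCR2hi, so all groups overlapped. Lcn2 was at 6.67 to 11.1% in Bhlhe41Cre CCR2low beside 4.65 to 8.74% in Bhlhe41Cre CCR2hi, against 24.0 to 37.8% in WT CCR2low beside 10.5 to 38.8% in WT CCR2hi. Fpr1 never reached the level of Fpr2 per length, at 0.153 to 0.933 of its TPM over the 12 libraries.

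**Figure D3:**
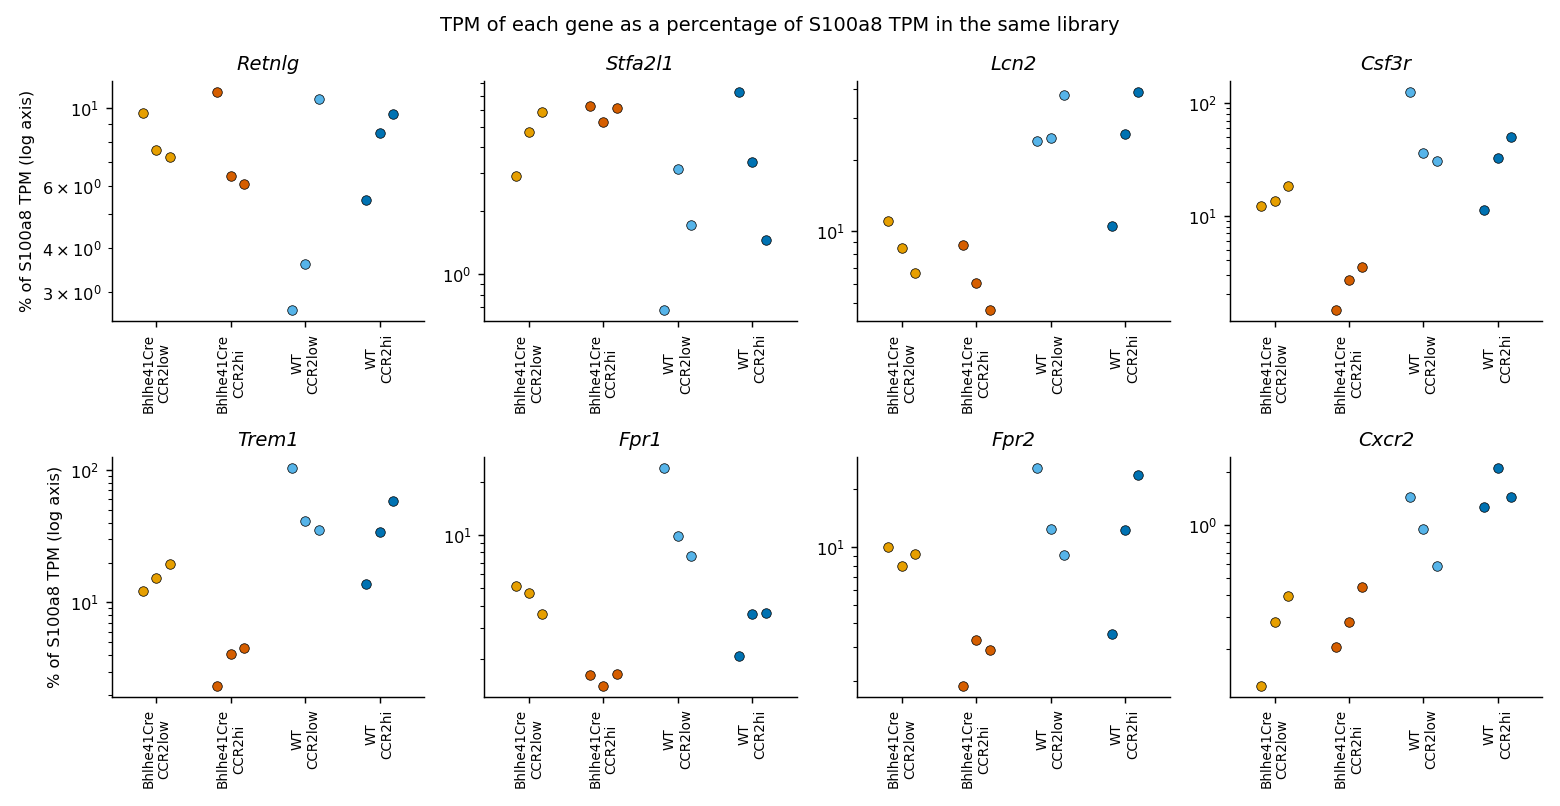
TPM of 8 of the genes as a percentage of S100a8 TPM in the same library (log axis), 1 point per library and 1 panel per gene. Csf3r, Trem1, Fpr1 and Fpr2 are lowest relative to S100a8 in Bhlhe41Cre CCR2hi, where Csf3r is at 1.45 to 3.52%, while Retnlg overlaps in all 4 groups.

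Other genes of neutrophils were counted from lists, which were also chosen with earlier results of these data known. Of 15 granule genes 11 were tested, and in CCR2hi 8 were higher in Bhlhe41Cre than in WT and 0 lower, against 16.2% of all genes higher, with a median log2 fold change of 3.04. Mmp8, the neutrophil collagenase, was at 23.6 ± 9.84 CPM in Bhlhe41Cre CCR2hi and 1.55 ± 0.275 CPM in WT CCR2hi (3.93 ± 0.313, edgeR adjusted p = 2.78e-06). Cd177, a neutrophil surface protein, changed by 3.04 ± 0.231 (adjusted p = 2.06e-06), Pglyrp1, which binds peptidoglycan, by 3.23 ± 0.295 (adjusted p = 7.94e-06), and Ngp, a protein of the secondary granules, by 3.25 ± 1.11 (adjusted p = 0.0441). The call of Ngp was lost in 8 of the 12 fits that left out 1 library, all but those without Bhlhe41Cre CCR2hi 2 or a WT CCR2low library, with 2.30 without Bhlhe41Cre CCR2hi 1 (adjusted p = 0.164), with both Bhlhe41Cre libraries numbered 3 left out (3.46, adjusted p = 0.0899) and on the macrophage list scale (2.31, adjusted p = 0.135). Ly6g, the surface marker used to identify mouse neutrophils, had 8, 5 and 10 counts in Bhlhe41Cre CCR2low beside 74, 27 and 24 in Bhlhe41Cre CCR2hi, against 1, 4 and 5 in WT CCR2low beside 0, 1 and 1 in WT CCR2hi, and was called higher in the CCR2hi comparison (adjusted p = 0.000175). With so few counts in WT, Ly6g could pass the filter only through Bhlhe41Cre, so its place among the 8 is no independent support. In the WT libraries alone 9 granule genes were tested in place of 11. Cebpe, also among the 8 and described below, had few counts in WT CCR2hi too, so the same caution applies to it. Ltf, which encodes lactoferrin, had 234, 53 and 125 counts in Bhlhe41Cre CCR2hi and 43, 24 and 38 in WT CCR2hi and was not called (1.92 ± 0.707, adjusted p = 0.0535). It was called with a block on the replicate number shared across genotypes (1.81, adjusted p = 0.0363) and without Bhlhe41Cre CCR2hi 2 (2.31, adjusted p = 0.0413), WT CCR2low 1 (adjusted p = 0.0354) or WT CCR2low 3 (adjusted p = 0.0101). Camp, which encodes the cathelicidin of the secondary granules (1.90, adjusted p = 0.18), and Mpo, the peroxidase of the primary granules (0.94, adjusted p = 0.395), were not called either. Elane, Ctsg, Ms4a3 and Fcnb, expressed by neutrophil precursors, did not pass the filter, with at most 19 counts in any library. Ngp, Ltf and Camp were high in WT CCR2low 3, with 234, 85 and 60 counts, against at most 13 in the other WT CCR2low libraries.

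Of 20 further genes of mature neutrophils 19 were tested, and 17 were higher and 0 lower in Bhlhe41Cre CCR2hi than in WT CCR2hi, against 16.2% of all genes higher, with a median of 2.95. Arg2, a mitochondrial arginase, changed by 4.87 ± 0.247 (edgeR adjusted p = 1.18e-07), Asprv1, an aspartic protease, by 4.64 ± 0.497 (adjusted p = 2.79e-05), Clec4d by 3.96 ± 0.185 (adjusted p = 1.18e-07) and Clec4e by 3.92 ± 0.375 (adjusted p = 1.21e-05), both C-type lectins that macrophages express too. Hdc, which makes histamine, changed by 3.01 ± 0.288 (adjusted p = 1.21e-05) and Il1r2, the decoy receptor for interleukin 1, by 2.95 ± 0.466 (adjusted p = 0.000529). G0s2 (0.15, adjusted p = 0.67) and Padi4 (0.03, adjusted p = 0.937) were not called, though Padi4 was lower on the macrophage list scale (-1.06, adjusted p = 0.0393). That scale put the median of all genes at -0.99 in this comparison, so its value for Padi4 is not read as a result. Without WT CCR2hi 1, Asprv1 was at 5.53, Clec4e at 4.57 and Il1r2 at 3.80. In CCR2low, 8 were higher and 5 lower in Bhlhe41Cre, where 16.4% of all genes were higher. The share of all genes called lower is not given here, so the count of 5 is not read as a result. Arg2 was at 3.37 ± 0.217 there (adjusted p = 1.95e-06) and Padi4, which citrullinates histones, at -2.33 ± 0.235 (adjusted p = 3.04e-05). Between the gates, 5 were higher and 8 lower in CCR2low of Bhlhe41Cre, where 29.1% of all genes were lower. In CCR2low of WT 12 were higher and 1 lower, where 29.8% of all genes were higher. Of the granule genes, 2 were higher and 5 lower in CCR2low of Bhlhe41Cre, and 5 were higher and 0 lower in CCR2low of WT, beside the same shares. On the macrophage list scale 0 mature genes were higher and 19 lower in Bhlhe41Cre, and 0 higher and 14 lower in WT. Granule genes were 0 higher and 11 lower in Bhlhe41Cre and 0 higher and 5 lower in WT on that scale. It put the median of all genes at -2.28 in Bhlhe41Cre and -3.41 in WT, so its counts are not read as results about these lists. The interaction was lower in Bhlhe41Cre for 6 of the 11 granule and 14 of the 19 mature genes, and higher for 0, where the macrophage list scale gave 3 and 6 lower, against a background of 7.85% of all genes called lower on TMM. The macrophage list scale put the median interaction of all genes at 0.96, so its counts are not like for like with those on TMM. With both Bhlhe41Cre libraries numbered 3 left out, 7 granule and 16 mature genes were higher in Bhlhe41Cre CCR2hi than in WT CCR2hi, and 3 granule and 5 mature genes were lower in CCR2low than in CCR2hi of Bhlhe41Cre. Counts of 3 and 5 were also found without Bhlhe41Cre CCR2low 2 and without Bhlhe41Cre CCR2hi 1. In CCR2low, the mature genes higher in Bhlhe41Cre numbered 4 without Bhlhe41Cre CCR2low 2 and 5 without WT CCR2low 1, and those lower numbered 3 to 5 over the fits with 1 library left out.

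**Figure D4:**
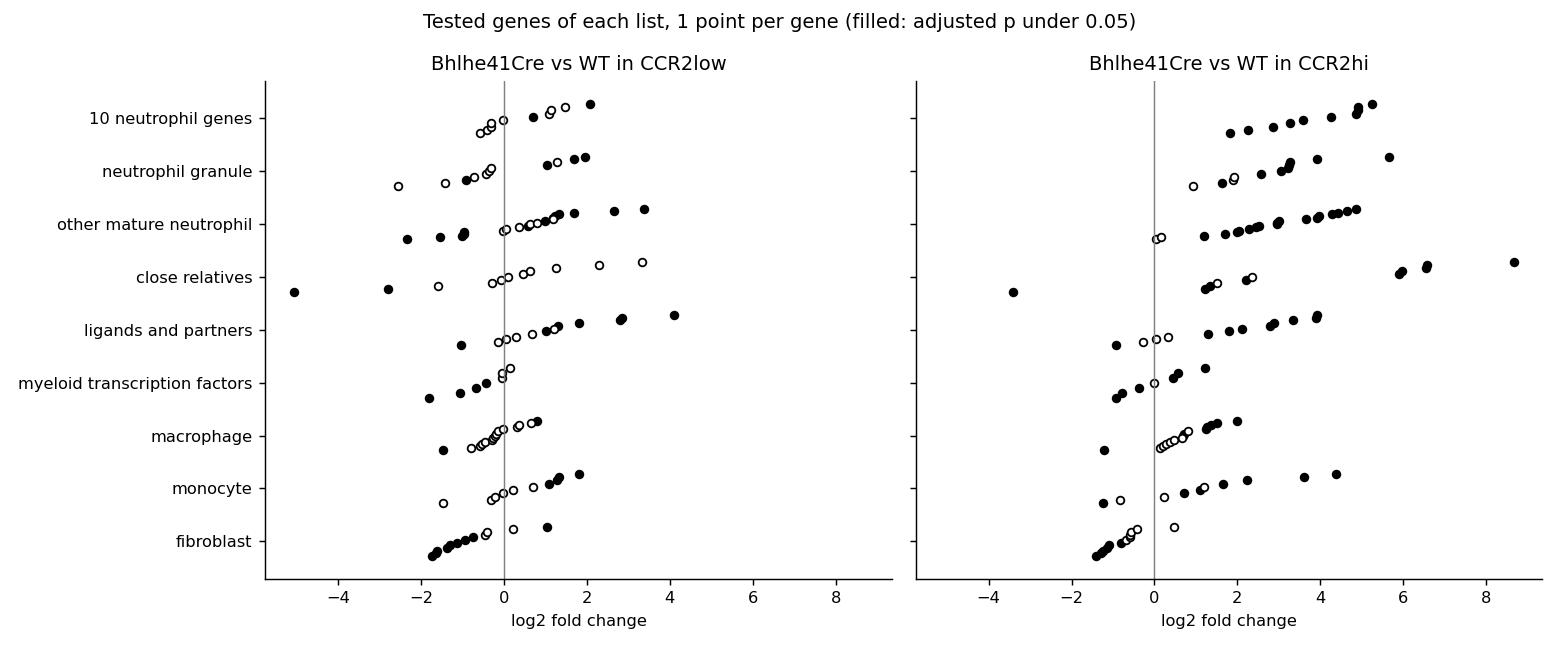
Log2 fold change of each tested gene in 9 lists for Bhlhe41Cre against WT, in CCR2low (left) and CCR2hi (right), 1 point per gene and filled where the edgeR adjusted p is under 0.05. In CCR2hi 8 of 11 granule genes and 17 of 19 other mature neutrophil genes are filled and right of 0, and in CCR2low 3 of 11 and 8 of 19 are. Of all genes, 16.2% were called higher in CCR2hi and 16.4% in CCR2low.

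Close relatives of the 10 genes did not all follow them. Of 20 listed relatives 11 were tested, but Stfa1, Stfa2, Stfa3 and BC100530 had at most 2 counts in any WT CCR2hi library and passed the filter through Bhlhe41Cre, so no count of calls is given for the list. Stefin A genes, near-identical copies that can share reads with Stfa2l1, were also higher in Bhlhe41Cre in CCR2hi: Gm5483 was at 11.9 ± 4.11 CPM in Bhlhe41Cre CCR2hi and 0.183 ± 0.232 CPM in WT CCR2hi (5.96 ± 0.528, edgeR adjusted p = 6.25e-06, and 7.68 without WT CCR2hi 1). Stfa1 had 19 to 83 counts against 0 to 1 (adjusted p = 0.000533), Stfa2 26 to 136 against 0 to 2 (adjusted p = 0.000126) and Stfa3 3 to 53 against 0 to 1 (adjusted p = 0.00323). BC100530 had 8 to 102 counts in Bhlhe41Cre CCR2hi and none in WT CCR2hi (adjusted p = 0.00169). Its mean CPM in Bhlhe41Cre CCR2hi was 17.1-fold that of a floor of 3 counts in each WT CCR2hi library. The floor bounds only the WT side of this ratio of means, and the Bhlhe41Cre CCR2hi libraries varied widely around their mean. The relatives of Retnlg went another way: Retnla, a product of alternatively activated macrophages, was lower in Bhlhe41Cre in CCR2hi (-3.42 ± 0.731, adjusted p = 0.00344, and -2.55 without WT CCR2hi 3) and in CCR2low (-2.79 ± 0.704, adjusted p = 0.00657, and -2.15 without WT CCR2low 1). Retn had 12 to 273 counts in WT CCR2low and at most 5 in any library of the other 3 groups. Trem2, a lipid-sensing macrophage receptor related to Trem1, was higher in Bhlhe41Cre CCR2hi than in WT CCR2hi (1.22 ± 0.317, adjusted p = 0.0108), but not on the macrophage list scale (0.40, adjusted p = 0.203). That scale put the median of all genes at -0.99 in this comparison. Fpr3, Fpr-rs3, Fpr-rs4, Fpr-rs6, Fpr-rs7 and BC117090 had no count in any of the 12 libraries, and Cxcr1 had at most 7.

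Of 12 ligands and signalling partners of the receptors, 6 were higher, 1 was lower and 5 were not called in Bhlhe41Cre CCR2low, where 16.4% of all genes were higher. In CCR2hi 8 were higher, 1 was lower and 3 were not called, where 16.2% of all genes were higher. On the macrophage list scale 5 were higher and 0 lower in CCR2low, and 7 were higher and 3 lower in CCR2hi. That scale put the median of all genes at -0.01 in CCR2low and -0.99 in CCR2hi. Its CCR2hi counts are therefore not read as results about this list. Csf3, which encodes G-CSF, the ligand of Csf3r, was at 36.9 ± 3.36 CPM in Bhlhe41Cre CCR2low beside 41.1 ± 13.3 CPM in Bhlhe41Cre CCR2hi, against 5.11 ± 2.13 CPM in WT CCR2low and at 2.68 ± 2.85 CPM in WT CCR2hi. It was higher in Bhlhe41Cre within CCR2low (2.85 ± 0.517, edgeR adjusted p = 0.000948) and within CCR2hi (3.93 ± 0.552, adjusted p = 0.000223, and 5.29 without WT CCR2hi 1). Of the ligands of CXCR2, Cxcl3 changed by 4.10 ± 0.274 in CCR2low (adjusted p = 2.29e-06) and 3.89 ± 0.273 in CCR2hi (adjusted p = 1.01e-06). Cxcl2, Cxcl5 and Ppbp were likewise higher in both gates, and Cxcl1 in CCR2hi alone by call (1.29 ± 0.34, adjusted p = 0.0112, against 0.69 ± 0.336, adjusted p = 0.112 in CCR2low, with an interaction of -0.60 that was not called, adjusted p = 0.419). Cxcl1 lost its CCR2hi call without Bhlhe41Cre CCR2hi 2 (adjusted p = 0.0519) and on the macrophage list scale (0.10, adjusted p = 0.863), and was called in CCR2low without WT CCR2hi 1 (0.88, adjusted p = 0.00816). Saa3, an acute-phase protein, was higher in Bhlhe41Cre CCR2hi (2.88 ± 0.54, adjusted p = 0.00179), and Anxa1, which encodes a ligand of FPR2, in Bhlhe41Cre CCR2low (1.01 ± 0.226, adjusted p = 0.0033). Tyrobp, the adaptor of TREM1, changed by 1.79 ± 0.25 in CCR2hi (adjusted p = 0.000191). Slc22a17, described as a lipocalin 2 receptor, was lower in Bhlhe41Cre in CCR2low (-1.04 ± 0.265, adjusted p = 0.007) and CCR2hi (-0.92 ± 0.231, adjusted p = 0.0086). On the macrophage list scale neither Slc22a17 (-0.87, adjusted p = 0.184) nor Anxa1 (1.19, adjusted p = 0.0758) was called in CCR2low. Slc22a17 also lost its CCR2low call with only the groups compared (-0.89, adjusted p = 0.0575) and in the fits to log2 TPM (-0.82 to -0.58, adjusted p = 0.0625 to 0.169). Of the S100A8 and S100A9 receptors, Tlr4 (0.33, adjusted p = 0.159) and Ager (-0.28, adjusted p = 0.526) were not called in CCR2hi, but Tlr4 was with both Bhlhe41Cre libraries numbered 3 left out (0.48, adjusted p = 0.0255) and Ager on the macrophage list scale (-1.23, adjusted p = 0.0358).

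Transcription factors of myeloid cells did not move as a block. Of 7 tested, 3 were higher and 3 lower in Bhlhe41Cre CCR2hi than in WT CCR2hi, where 16.2% of all genes were higher. Median log2 fold changes were 0 for the 7 and -0.03 for all genes. On the macrophage list scale 0 factors were higher and 4 lower. That scale put the median of all genes at -0.99, so its counts are not read as results about these factors. Spi1, which encodes PU.1, changed by 1.21 ± 0.226 (edgeR adjusted p = 0.00142) and Cebpb by 0.44 ± 0.146 (adjusted p = 0.0328), while Cebpd changed by -0.93 ± 0.135 (adjusted p = 0.000261), Klf4 by -0.79 ± 0.15 (adjusted p = 0.00161) and Runx1 by -0.38 ± 0.113 (adjusted p = 0.0215). The call of Cebpb was lost without Bhlhe41Cre CCR2hi 2 (adjusted p = 0.0591) or 3 (adjusted p = 0.152) or WT CCR2hi 2 (adjusted p = 0.134), or with both Bhlhe41Cre libraries numbered 3 left out (0.31, adjusted p = 0.0974), and that of Runx1 without Bhlhe41Cre CCR2hi 2 (adjusted p = 0.0631). On the macrophage list scale Spi1 was at 0.38 (adjusted p = 0.196) and Cebpb at -0.56 (adjusted p = 0.132), neither called. In CCR2low 0 were higher, where 16.4% of all genes were higher, and 4 were lower in Bhlhe41Cre, with Cebpd at -1.81 ± 0.14 (adjusted p = 5.62e-06). Only 2 were lower in 8 of the 12 fits with 1 library left out. Median log2 fold changes in CCR2low were -0.42 for the 7 and -0.18 for all genes. The share of all genes called lower is given for neither gate, so the counts of lower factors are not read as results. Cebpe, the granulocyte factor counted with the granule genes, had 11 to 16 counts in Bhlhe41Cre CCR2hi and 1 to 4 in WT CCR2hi (2.57 ± 0.546, adjusted p = 0.00331, and 3.48 without WT CCR2hi 3).

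Markers of other cell types stood beside these differences. Of all genes, 16.2% were called higher in Bhlhe41Cre CCR2hi than in WT CCR2hi, the share beside which the counts of higher genes below stand. In CCR2hi, where the 10 genes took 0.126 ± 0.0245% of counts in Bhlhe41Cre and 0.00874 ± 0.00272% in WT, 7 of 15 macrophage genes were higher and 1 lower in Bhlhe41Cre, and their summed share was 0.426 to 0.587% in Bhlhe41Cre and 0.155 to 0.342% in WT. The monocyte list, with 6 of 10 higher and 1 lower, took 0.611 to 0.705% in Bhlhe41Cre CCR2hi and 0.992 to 1.18% in WT CCR2hi. Its median log2 fold change was 1.14, against -0.03 for all genes. The summed share thus went the other way from most of its called genes and does not describe the list gene by gene. Fibroblast genes took 3.89 to 4.96% in Bhlhe41Cre CCR2hi and 7.42 to 8.29% in WT CCR2hi, with 6 of 12 lower in Bhlhe41Cre. Their median log2 fold change was -0.74, against -0.03 for all genes, and the share of all genes called lower is not given here. No gene of these lists was at 0 in any group. Of 5 eosinophil and mast cell genes tested 3 were higher in Bhlhe41Cre CCR2hi, with the mast cell gene Cpa3 at 35 to 50 counts there and 1 to 10 in WT CCR2hi (2.68, edgeR adjusted p = 0.00262), while the eosinophil genes Epx and Ear6 had at most 4 counts in any library. Scaled to the macrophage list, the 10 genes differed between genotypes in CCR2hi by 0.80 for Csf3r to 4.27 for Retnlg on the log2 scale, all called. The part of these other cells in the result was not tested.

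**Figure D5:**
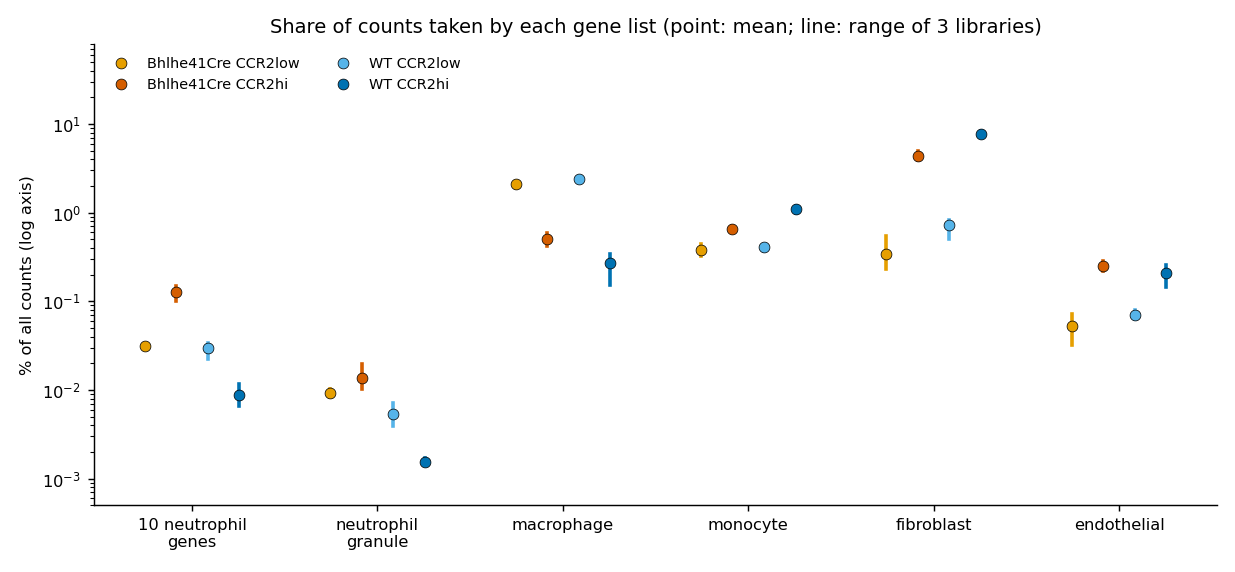
Share of all counts (%, log axis) taken by the 10 neutrophil genes, the granule genes and the marker lists of 4 other cell types, by group, as the mean with the range of 3 libraries. The 10 genes take 0.126% in Bhlhe41Cre CCR2hi and 0.00874% in WT CCR2hi, while the macrophage list is highest in both CCR2low groups and the fibroblast list in both CCR2hi groups.

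Over the 12 libraries, which fall into the 4 groups and so are not independent points, the 10 genes formed sets by the correlation of their log2 CPM, given as a description. S100a8, S100a9, Retnlg and Stfa2l1 correlated with each other at r = 0.95 to 0.99, and Csf3r with Trem1 at 0.95 but with Stfa2l1 at 0.31. Outside the 10 genes, those most like S100a8 were Gm5483 (r = 0.988), Asprv1 (0.978) and Pdcd1lg2 (0.965), a ligand of the PD-1 checkpoint receptor. Asprv1 was the nearest gene to S100a9 (0.988), Stfa2l1 (0.994) and Retnlg (0.958) as well. Lcn2 was nearest to Stfa1 (0.951), Cxcr2 to H2-Q10 (0.939), Fpr1 to Cdk2 (0.959) and Fpr2 to Adgrg3 (0.970). The nearest genes of Csf3r were Krt18 (0.975), Pmvk (0.974) and Tlr6 (0.971), and those of Trem1 were Mcemp1 (0.985), Cdkn1a (0.970) and Gm28048 (0.963), none of them shared with S100a8.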

How the data were processed

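RNA sequencing libraries of cardiac macrophages after infarction were taken as 4 groups of 3, by sample title, since the other label fields of the Bhlhe41Cre samples are shifted. Columns named KD in the tables were matched to the Bhlhe41Cre samples by gate and number, and 0 columns were left unmatched. Per the submitters' processing notes, base calls came from CASAVA 1.8, reads were aligned with STAR 2.4.0j to mm10, and genes were quantified with RSEM; the sources used here do not give the strand protocol. The deposited expected counts of the authors are whole numbers, so no rounding was needed. The deposited TPM values were made by the authors and sum to 1e+06 per library. RSEM divides reads shared by near-identical genes, which bears on the stefin A family.

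Counts were tested in R 4.3.3 with edgeR 4.0.16 (TMM, filterByExpr, robust quasi-likelihood, 14964 genes, 8 residual degrees of freedom, common biological coefficient of variation 18.9%). Tests were two-sided with Benjamini-Hochberg adjustment over all genes, called under 0.05 with no fold minimum. The SE is the log2 fold change over the square root of F. The procedure was checked on simulated data. Alternatives used limma 3.58.1 and DESeq2 1.42.0, other scalings, the TPM table with pseudocounts of 1 and 0.1, and each library left out. Depth was 17.7 to 20.83 M counts per library, and counts below about 10 are imprecise by counting alone. Reads carry no molecular identifiers, so the floor of 3 counts covers counting error only.

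The labels do not say that libraries are separate animals, so p-values measure the spread between libraries. Libraries of a group differed far beyond sampling noise, with a chi-square per gene of 11.7 to 77.7. Equal replicate numbers were checked by correlating residuals. These were 0.23, 0.12 and 0.40 between the Bhlhe41Cre gates, each over 0.1, so the numbers were taken to pair these libraries, while -0.06, 0.03 and -0.05 between the WT gates gave no such sign. Between genotypes they were -0.21, -0.06 and -0.26 in CCR2low and 0.10, -0.16 and 0.15 in CCR2hi. The 0.12 lies within that range, so the sign of pairing is weak.

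Of the neutrophil lists, called genes and up to 4 uncalled genes with the highest CPM could be named for each comparison, and the 3 genes most correlated with each of the 10. The 10 genes, the lists and this rule were chosen with earlier results of these data known. Elane, Ctsg, Ms4a3 and Fcnb, the genes listed at 0, Cxcr1, Retn and the granule genes Camp and Mpo were named after their values were seen. Gene positions are from GENCODE release M21, and promoters from RefSeq. No protein sequence was used here.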

Additional observations from a re-analysis of the deposited data

Results flagged for a closer look

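For 9 of the 10 neutrophil genes the difference between the CCR2 gates differed between the genotypes, by the edgeR interaction term with Benjamini-Hochberg adjustment over all genes, of which 7.85% were called lower. The interaction is the log2 difference of CCR2low from CCR2hi in Bhlhe41Cre, less that in WT, and a negative value means a lower CCR2low level, relative to CCR2hi, in Bhlhe41Cre. It was -3.76 for S100a8 (adjusted p = 0.00844) and -3.78 for S100a9 (adjusted p = 0.00637), the calprotectin pair. Among the other stored or secreted proteins it was -3.76 for Retnlg (adjusted p = 0.0233) and -4.16 for Lcn2 (adjusted p = 0.00499). Among the receptors it was -4.26 for Fpr1 (adjusted p = 0.000307), -3.25 for Cxcr2 (adjusted p = 0.0122), -2.56 for Fpr2 (adjusted p = 0.000648), -2.55 for Trem1 (adjusted p = 0.000201) and -2.15 for Csf3r (adjusted p = 0.00108). In Bhlhe41Cre the 3 CCR2low libraries lay below the 3 CCR2hi libraries for 8 of the 10 genes, as for 32.6% of all genes, and in WT they lay above for 5 of 10, as for 33.7% of all genes. Library 3 of Bhlhe41Cre, with few Y-linked counts, was not needed for these calls except that of Retnlg, which was lost without it in both gates. The Bhlhe41Cre libraries kept still had high Xist counts, so this does not separate sex from genotype.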

How the results depend on the processing

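In CCR2hi, all 10 genes were called higher in Bhlhe41Cre than in WT under each of the 24 alternatives run. Of these, Stfa2l1 did not pass the filter in the WT libraries alone and is no independent support. Between the Bhlhe41Cre gates 8 to 10 genes were called, all lower in CCR2low except Csf3r without Bhlhe41Cre CCR2hi 3. Bhlhe41Cre against WT in CCR2low was the least stable count: in place of 2 genes, 0 were called on the macrophage list scale, 1 with no filter, with DESeq2 or with log2(TPM + 1) and no filter, 4 with only the groups compared, 5 with limma-voom, and 0 to 4 with 1 library left out. Between the WT gates 5 to 8 were called with 1 library left out, 8 without WT CCR2low 1, and 9 lower on the macrophage list scale, all but Fpr1. That scale turned the sign of 9 genes, all but Stfa2l1 (-3.80): S100a8 -2.57, S100a9 -2.87, Retnlg -2.33, Lcn2 -1.49, Csf3r -1.16, Cxcr2 -3.19, Fpr1 -0.32, Fpr2 -1.49 and Trem1 -1.35. It put Csf3r at -2.12 between the Bhlhe41Cre gates, and in CCR2hi Cebpb was at -0.56 and Padi4 at -1.06 for Bhlhe41Cre against WT. That scale divides by 15 macrophage genes that all differ between the gates, which by construction moves every gate difference, and the interaction count fell to 3 on it. The median of all genes on it was -0.99 for Bhlhe41Cre against WT in CCR2hi and 0.96 for the interaction. On TMM these medians were -0.03 and -0.18. The interaction count was 8 to 10 with 1 library left out and 6 to 9 under the other alternatives. The 6 came from log2(TPM + 1) with no filter, and Retnlg also lost its interaction call with limma-voom (adjusted p = 0.0901) and no filter (adjusted p = 0.128). Lcn2 between the WT gates lost its call with no filter (1.90, adjusted p = 0.0549) and on log2(TPM + 1) (1.23, adjusted p = 0.0773, and 0.156 with no filter). It was lost on log2(TPM + 0.1) as well (1.28, adjusted p = 0.0777). Trem1 between the Bhlhe41Cre gates lost its call with DESeq2 (adjusted p = 0.0504), with DESeq2 size factors in edgeR (adjusted p = 0.0557), with only the groups compared (adjusted p = 0.0764) and with no filter (-0.30, adjusted p = 0.174). Among other genes in CCR2hi, no filter ended the calls of Ngp (adjusted p = 0.156), Cebpb (adjusted p = 0.0713), Cxcl1 (adjusted p = 0.0713) and Trem2 (adjusted p = 0.083), log2(TPM + 0.1) those of Ngp (adjusted p = 0.0986) and Cebpb (adjusted p = 0.0717), and library size only that of Runx1 (adjusted p = 0.0584). Ltf was called with DESeq2 (adjusted p = 0.0266) and only the groups compared (adjusted p = 0.0188). The cause of these changes was not tested. With the replicate block, the counts called were 5 and 9 between the WT and Bhlhe41Cre gates, 2 and 10 between genotypes in CCR2low and CCR2hi, and 9 for the interaction, so no call of the 10 genes changed. For the gates and the interaction the block paired the gates of each genotype by number. Between genotypes it was the replicate number shared by Bhlhe41Cre and WT, which does not pair the gates. Of the other genes named, that block changed the call of Ltf. With the block, 10 other mature neutrophil genes in place of 8, and 6 granule genes in place of 5, were lower in CCR2low of Bhlhe41Cre. Counts of other mature neutrophil genes higher in Bhlhe41Cre CCR2low than in WT CCR2low were 4 to 10 with 1 library left out, against 8 in all. Leaving out both Bhlhe41Cre libraries numbered 3 was chosen after seeing the data. Low counts limit Stfa2l1 and Cxcr2.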
